A study of Mus musculus with 18 samples.

Results

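Circular RNAs (circRNAs) from 10 liver genes of drug metabolism and bile transport were examined in the livers of 18 male C57BL/6 mice. A circRNA belonged to this set when both of its ends lay inside 1 of the genes Ces1c, Cyp1a2, Cyp2c70, Cyp3a25, Cyp4f14, Fmo5, Slco1b2, Abcb11, Abcc2 and Nr1h4. All 10 genes had at least 1, and Cyp2c70 and Abcc2 had 2 each, which gave 12 circRNAs of the 474 in the deposited table. The genes were chosen by function, with earlier results of these data known. The Cirrhosis-PTH mice were injected with 10% carbon tetrachloride (CCl4) in corn oil and received Pien Tze Huang (PTH), a medicine of traditional Chinese formula, by mouth at 0.25 mg per g daily. The Cirrhosis mice had the same CCl4 injections with double distilled water by mouth, and the Control mice had corn oil without CCl4 and the same water. Each group had 6 sequenced mice, bought at an age of 6 weeks, injected with 10 µl per g 2 times a week, with livers taken after 12 weeks. CCl4 injury is a chemical model, the samples are whole liver, and the sequenced animals are 18 of 45 treated mice, all male.

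A circRNA forms when the end of an exon is spliced back to the start of the same or an earlier exon, which leaves a closed loop and a junction in the order last exon, first exon. Hepatocytes take up drugs and bile acids from blood through carriers such as Slco1b2, oxidise or hydrolyse them with cytochromes P450, flavin monooxygenases and carboxylesterases, and pump the products into bile through Abcb11 and Abcc2. Nr1h4, the farnesoid X receptor, senses bile acids and switches on the export pump gene Abcb11 while it represses bile acid synthesis. Cytochromes P450 also convert CCl4 into the radical that injures the liver.

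Both ends of 11 of the 12 circRNAs lay at annotated exon ends of the host gene (GENCODE M21, GRCm38), and their exons held coding sequence alone. In the other one, from Cyp2c70 exons 4 to 9 (chr19:40153519-40167623), 1 end lay inside the last exon, beyond the stop codon, and not at an exon end. Whether a splice site lies at that end was not checked, and its values are given with that limit. The 11 held 2 to 5 exons (median 3) and 164 to 1048 bases (median 477). Of the 462 other circRNAs of the table, 424 had both ends at exon ends, and 82.5% of these held coding sequence alone. These 424 had a median of 3 exons and 306 bases. The intron before the loop had a median of 4720 bases in the 11 and 11964 bases in the others, and the intron after it 3508 and 10704 bases. These lengths are descriptions without a test. The loop was a multiple of 3 bases long in 4 of the 11 (Nr1h4, Abcc2 exons 12 to 16, Cyp2c70 exons 4 to 6 and Slco1b2), 36.4%, against 34.7% of the 424 others.

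**Figure D1:**
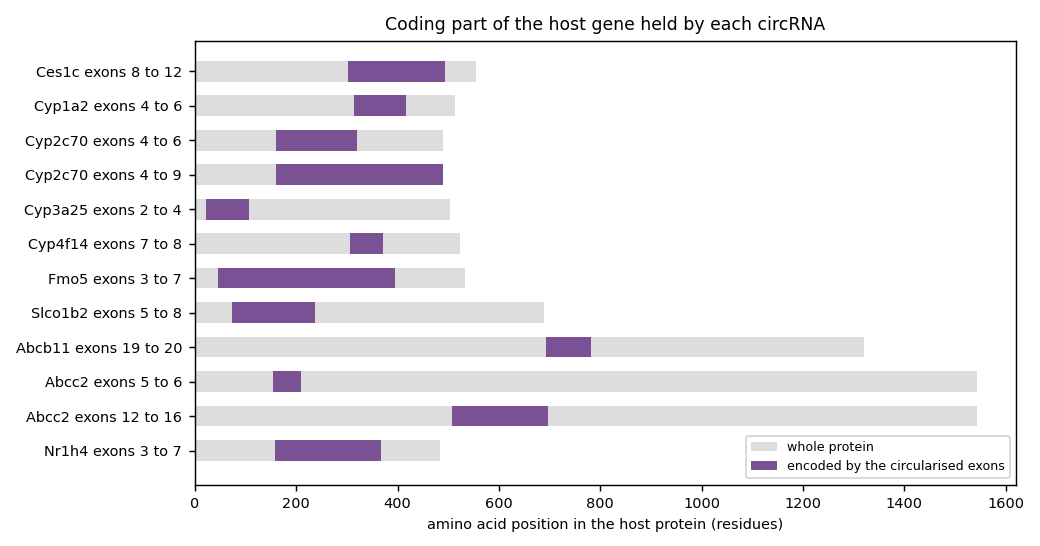
Each row is 1 circRNA, the grey bar is the host protein in residues and the purple bar is the stretch that the circularised exons encode. Fmo5 (residues 46 to 395 of 533) and Cyp2c70 exons 4 to 9 (residues 161 to 489 of 489) hold the longest stretches, and Abcc2 exons 5 to 6 (residues 156 to 210 of 1543) the shortest.

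The back-splice junction is the only part of a circRNA that a read can tell from the linear transcript. Junctions are given here for the circRNAs other than those of Cyp2c70 and Slco1b2. They were read from the GENCODE M21 transcripts in the sense of the gene, 25 bases a side. Lower case is the end of the last exon and capitals are the start of the first exon.
Ces1c exons 8 to 12, chr8:93100654-93108573, minus strand: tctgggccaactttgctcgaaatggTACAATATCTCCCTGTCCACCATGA
Cyp3a25 exons 2 to 4, chr5:145998487-146003124, minus strand: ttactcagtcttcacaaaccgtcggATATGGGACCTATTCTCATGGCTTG
Cyp4f14 exons 7 to 8, chr17:32907647-32908036, minus strand: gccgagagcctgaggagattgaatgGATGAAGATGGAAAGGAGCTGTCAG
Cyp1a2 exons 4 to 6, chr9:57678987-57680339, minus strand: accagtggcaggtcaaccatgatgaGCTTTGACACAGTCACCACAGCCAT
Fmo5 exons 3 to 7, chr3:97635511-97645920, plus strand: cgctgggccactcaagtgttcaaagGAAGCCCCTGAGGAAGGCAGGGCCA
Abcb11 exons 19 to 20, chr2:69273998-69277870, minus strand: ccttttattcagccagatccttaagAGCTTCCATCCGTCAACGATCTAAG
Abcc2 exons 5 to 6, chr19:43798407-43799145, plus strand: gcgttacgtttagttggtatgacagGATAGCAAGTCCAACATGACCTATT
Abcc2 exons 12 to 16, chr19:43810471-43814814, plus strand: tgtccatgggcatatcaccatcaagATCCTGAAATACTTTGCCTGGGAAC
Nr1h4 exons 3 to 7, chr10:89473752-89483524, minus strand: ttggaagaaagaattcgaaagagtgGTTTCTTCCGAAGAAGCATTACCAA
The Nr1h4 loop begins within the part of the receptor that binds DNA and runs into the part that binds bile acids.

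The P450 and carboxylesterase genes lie in families of close relatives, so each side of each junction was compared with the transcripts of all other mouse genes. For Cyp3a25 the last-exon side was identical to Cyp3a57 and the first-exon side to Cyp3a59. No single relative matched both sides, since Cyp3a57 differed at 3 bases of the first-exon side and Cyp3a59 at 1 base of the last-exon side. The whole Cyp3a25 loop was 98% identical to Cyp3a59 over 245 bases. For Ces1c the last-exon side was identical to Ces1b, while the first-exon side differed from it at 5 bases, marked by capitals in the Ces1b sequence.
Ces1b, first-exon side: GacaataCctccAtgtccacTGtga
For Cyp4f14 the first-exon side was identical to Cyp4f15 and Cyp4f40, whose last-exon sides differed at 8 and 7 bases. Cyp4f16 differed from Cyp4f14 at 1 base on each side, and the base on the last-exon side is the capital in its sequence.
Cyp4f16, last-exon side: Accgagagcctgaggagattgaatg
The Cyp4f14 loop was at least 90% identical, over 80% or more of its length, to 5 genes, namely Cyp4f15, Cyp4f16, Cyp4f17, Cyp4f18 and Cyp4f37. The counts of Cyp3a25, Cyp4f14 and Ces1c may therefore hold reads of these relatives. Cyp2c70 was farther from its family, with a loop of exons 4 to 9 at most 72.1% identical to another gene (Cyp2c55), although the last-exon side of exons 4 to 6 differed from Cyp2c29 at 1 base. Both sides of the junctions of Cyp1a2, Fmo5, Slco1b2, Abcb11, Abcc2 and Nr1h4 differed at 4 or 5 bases from the nearest sequence of any other gene. For Slco1b2 and Abcc2 exons 12 to 16 that nearest sequence was antisense on both sides.

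**Figure D2:**
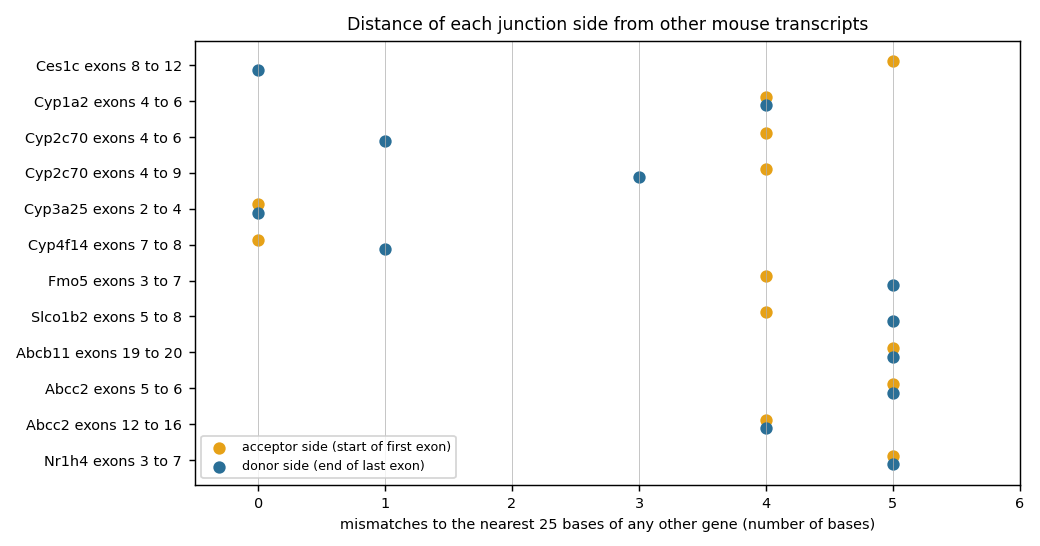
The horizontal axis is the number of mismatched bases between 25 bases at each side of the junction and the nearest 25 bases of any other mouse gene; blue points are the last-exon (donor) side and orange points the first-exon (acceptor) side. Cyp3a25 has both sides at 0, Ces1c and Cyp4f14 have 1 side at 0, and the genes of transport and the receptor lie at 4 or 5.

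Values are CPM of back-splice reads, scaled by a total for each library whose nature is not stated, and all of them were whole multiples of the value of 1 read in the library. The table held 38784 such reads, 794 to 8431 a library, and the 12 circRNAs had 749. A single read was worth 0.0343 to 0.37 CPM, so 0 reads allowed a level of up to 0.103 to 1.11 CPM, the value of 3 reads, depending on the library. These limits cover counting error only. Of the 216 values of the 12 circRNAs, 66 were 0 (30.6%, against 31% of all values in the table) and 14 rested on 10 or more reads. Cirrhosis-PTH 6 was the deepest library and gave 199 of the 749 reads (26.6%, against 21.7% of all reads). Of the 18 hepatocyte marker genes looked for, Egfr alone hosted a listed circRNA, so the table holds no other check of the tissue by those markers.

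The 12 circRNAs were spread over the table, 4 above its median level and 8 below. The most abundant was that of Ces1c, a carboxylesterase that mice secrete into plasma, with a mean over all libraries of 1.1 ± 0.773 CPM (SD, n = 18), rank 57 of 474. Abcc2 exons 5 to 6 followed at 0.966 ± 0.809 CPM, rank 67. Abcb11 (0.45 ± 0.505 CPM) and Cyp3a25 (0.427 ± 0.46 CPM) were the other 2 above the median circRNA of the table, 0.375 CPM. The widest step between neighbours in this order was that between Abcc2 exons 5 to 6 and Abcb11, and from Abcb11 down neighbours were closer than their SDs. Cyp2c70 exons 4 to 6 had the lowest mean of all 474 circRNAs, 0.0992 ± 0.131 CPM from 16 reads. Slco1b2, Cyp4f14 and Cyp2c70 exons 4 to 6 were above 0 in 9 libraries, the fewest that any listed circRNA had. A read was counted at 1 junction, so these levels are not scaled by the length of the loop. Whether that length alters how many junction reads are recovered was not tested.

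Among the enzymes, Ces1c was read in 17 of 18 libraries. It ranged from 0 to 3.15 CPM in Cirrhosis-PTH (median 1.11), from 0.365 to 2.17 in Cirrhosis (median 1.06) and from 0.455 to 1.43 in Control (median 0.819). The 3 groups overlapped, and the spread was widest in Cirrhosis-PTH, where Cirrhosis-PTH 1 and 6 stood at 3.15 and 2.16 CPM and Cirrhosis-PTH 4 had 0 reads, at a limit of 0.224 CPM. Cyp1a2, which oxidises caffeine and aromatic amines, ranged from 0 to 0.701 CPM in Cirrhosis-PTH (median 0), from 0 to 1.45 in Cirrhosis (median 0.43) and from 0 to 0.607 in Control (median 0.223). It was read in 2 of 6 Cirrhosis-PTH libraries, 4 of 6 Cirrhosis and 4 of 6 Control libraries. Cyp3a25, of the subfamily that oxidises steroids and many drugs, was led by a single library in each group, Cirrhosis-PTH 1 at 1.23, Cirrhosis 3 at 1.29 and Control 3 at 1.37 CPM. Its group means were 0.395 ± 0.425 CPM in Cirrhosis-PTH, 0.367 ± 0.534 in Cirrhosis and 0.519 ± 0.487 in Control (SD, n = 6 each). Without these libraries the means were 0.228 CPM in Cirrhosis-PTH, 0.182 in Cirrhosis and 0.349 in Control.

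Cyp2c70 makes the muricholic acids of mouse bile. Its loop of exons 4 to 9 was above 0 in all 6 Control libraries, between 0.296 and 0.767 CPM, against 4 of 6 Cirrhosis-PTH libraries (0 to 0.953 CPM) and 4 of 6 Cirrhosis libraries (0 to 0.53 CPM). The Control values rest on 1 to 5 reads a library. The 0 values in Cirrhosis-PTH 2, Cirrhosis-PTH 4, Cirrhosis 4 and Cirrhosis 6 allow up to 0.708, 0.224, 0.725 and 0.553 CPM, so 3 of these 4 limits reach into the Control range. The loop of exons 4 to 6, which starts at the same exon, averaged 0.091 ± 0.0783 CPM in Cirrhosis-PTH (8 reads), 0.0609 ± 0.149 in Cirrhosis (2 reads, both in Cirrhosis 5) and 0.146 ± 0.161 in Control (6 reads). It took 20.5% of the Cyp2c70 reads in Cirrhosis-PTH (exact Clopper-Pearson 95% interval 9.3 to 36.5). The share was 16.7% in Cirrhosis (2.09 to 48.4) and 26.1% in Control (10.2 to 48.4). The intervals pool the reads of each group and leave out the spread between mice. A difference in the choice of loop was not detectable at this depth. Cyp4f14, which adds a hydroxyl group to the end of fatty-acid mediators and vitamin E, was read in 3 of 6 libraries of each group. Its highest value, 0.922 CPM, came from 5 reads in Cirrhosis 6, without which the Cirrhosis mean of 0.229 CPM was 0.0901.

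Fmo5, a flavin monooxygenase that inserts oxygen into ketones, stood lowest in Cirrhosis-PTH. It ranged from 0 to 0.477 CPM in Cirrhosis-PTH (median 0), from 0 to 0.913 in Cirrhosis (median 0.277) and from 0 to 1.18 in Control (median 0.365). Cirrhosis-PTH 1, 2, 3 and 4 had 0 reads, at limits of 0.526, 0.708, 0.385 and 0.224 CPM, while 4 of 6 Cirrhosis and 5 of 6 Control libraries had some. Cirrhosis-PTH 5, with 6 of the group's 9 reads, set its mean of 0.0966 CPM, which was 0.0206 CPM without it.

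**Figure D3:**
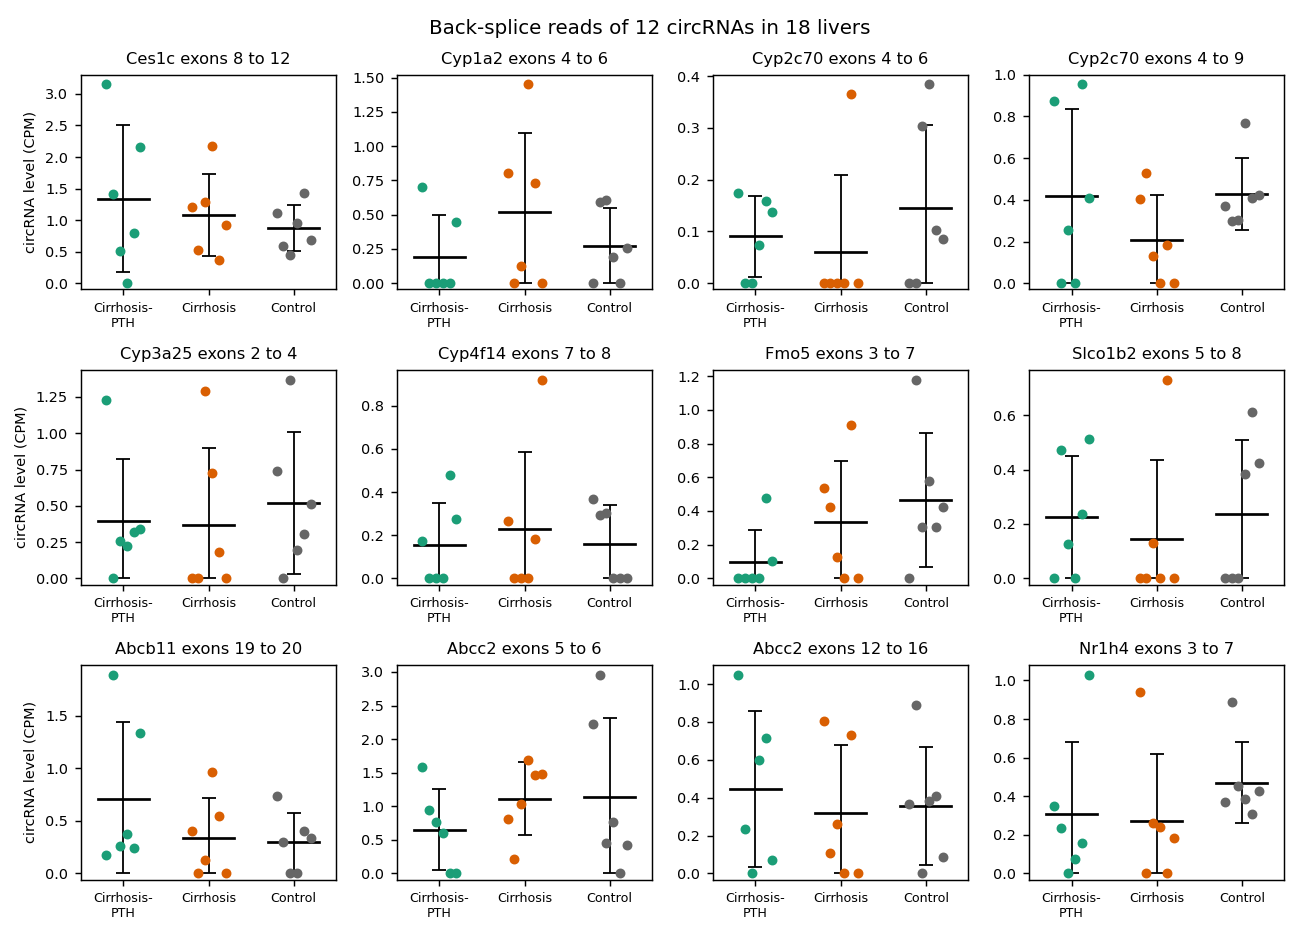
Each panel is 1 circRNA and each point 1 library in CPM, by group; black lines are the mean and bars 1 SD, cut at 0. The groups overlap in all 12 panels, with Fmo5 at 0 in 4 of 6 Cirrhosis-PTH libraries and Nr1h4 above 0 in all 6 Control libraries.

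Among transport genes, Slco1b2, the carrier that takes bile acids, bilirubin and drugs from blood into the hepatocyte, was read in 4 of 6 Cirrhosis-PTH, 2 of 6 Cirrhosis and 3 of 6 Control libraries. Its means were 0.226 ± 0.226 CPM in Cirrhosis-PTH, 0.143 ± 0.292 in Cirrhosis and 0.237 ± 0.27 in Control (SD, n = 6 each), and the Cirrhosis mean was 0.0259 CPM without Cirrhosis 5. Abcb11, the bile salt export pump, was above 0 in all 6 Cirrhosis-PTH libraries, between 0.175 and 1.89 CPM with a median of 0.315. It ranged from 0 to 0.967 CPM in Cirrhosis (median 0.266) and from 0 to 0.739 in Control (median 0.318). The medians lay close together, and the higher Cirrhosis-PTH mean of 0.711 CPM came from Cirrhosis-PTH 2 and 6, at 1.89 and 1.34 CPM. Nr1h4 was above 0 in 5 of 6 Cirrhosis-PTH, 4 of 6 Cirrhosis and 6 of 6 Control libraries. It ranged from 0 to 1.03 CPM in Cirrhosis-PTH (median 0.198), from 0 to 0.938 in Cirrhosis (median 0.213) and from 0.306 to 0.888 in Control (median 0.404). In each treated group 1 library stood above 0.9 CPM, Cirrhosis-PTH 6 with 30 reads and Cirrhosis 1 with 7 reads, and the others lay at 0.35 CPM or less in Cirrhosis-PTH and 0.259 or less in Cirrhosis. Without its highest library the mean was 0.164 CPM in Cirrhosis-PTH, 0.137 in Cirrhosis and 0.388 in Control.

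Abcc2, the canalicular pump for bilirubin glucuronides and drug conjugates, had a loop of exons 5 to 6 and one of exons 12 to 16. The loop of exons 5 to 6 ranged from 0 to 1.58 CPM in Cirrhosis-PTH (median 0.683), from 0.212 to 1.69 in Cirrhosis (median 1.25) and from 0 to 2.96 in Control (median 0.611). It had 0 reads in Cirrhosis-PTH 5, Cirrhosis-PTH 6 and Control 7, at limits of 0.238, 0.103 and 0.306 CPM, and 2 to 10 reads in the other 15 libraries. Cirrhosis-PTH 6, the deepest library, thus held none of the 94 reads of this loop, and it held 39 of 80 reads of Abcb11. In the same 3 libraries the loop of exons 12 to 16 had 9, 2 and 4 reads. Over the groups, exons 5 to 6 took 50.9% of the Abcc2 reads in Cirrhosis-PTH (27 of 53, exact 95% interval 36.8 to 64.9), 75% in Cirrhosis (39 of 52, 61.1 to 86) and 71.8% in Control (28 of 39, 55.1 to 85). The intervals cover counting error only, and by library the share ran from 0 to 100% in both Cirrhosis-PTH and Control and from 50 to 100% in Cirrhosis. The loop of exons 12 to 16 averaged 0.445 ± 0.411 CPM in Cirrhosis-PTH, 0.317 ± 0.362 in Cirrhosis and 0.356 ± 0.312 in Control (SD, n = 6 each).

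**Figure D4:**
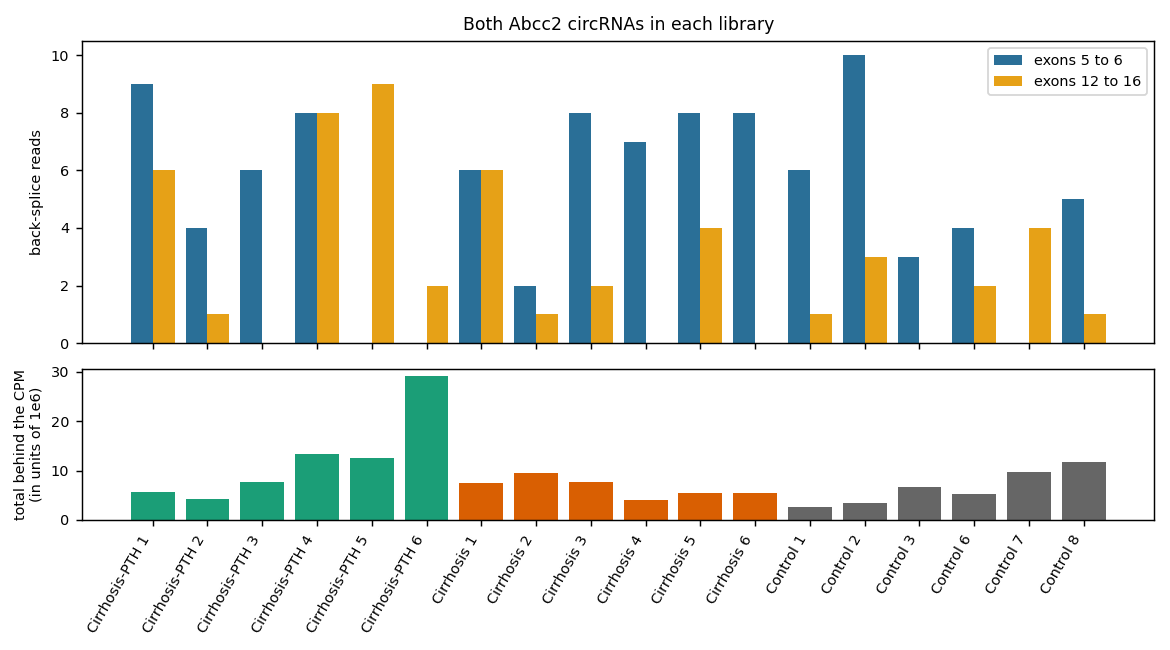
The upper panel gives back-splice reads of both Abcc2 loops in each library and the lower panel the total that each library's CPM was scaled to, coloured by group. Cirrhosis-PTH 5, Cirrhosis-PTH 6 and Control 7 have 0 reads of exons 5 to 6, although their totals are not the smallest.

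The comparison of Cirrhosis with Control asks which of these circRNAs CCl4 altered. In limma's test, fitted on log2(CPM + 0.143) over all 474 circRNAs with 1 model of 18 libraries, 0 of the 12 passed a Benjamini-Hochberg adjusted p of 0.05, and 0% of the whole table did. At an unadjusted p under 0.05 there were 0 of 12, against 12.2% of the table. On recovered reads edgeR (0% of the table) and DESeq2 (0.211%) called 0 of the 12, DESeq2 giving no adjusted p for 10 of them, and 0 had an unadjusted p under 0.05, against 5.91% of the table in edgeR and 8.02% in DESeq2. Of the 12, 5 had a fitted difference above 0 and 7 below, against 56.1% above 0 in the table, with a median of -0.36 in the 12 and 0.12 in all. The split moved with the scaling, since with each library centred on the circRNAs found in all 18 libraries 0 of the 12 were above 0, against 28.9% of the table (median -0.94 in the 12 and -0.46 in all). With that centring 3 of the 12 had an unadjusted limma p under 0.05, against 78 of 474 in the table. These were Nr1h4 and both Cyp2c70 loops, each with a limma adjusted p of 0.3. The lowest fitted limma values were those of Cyp2c70 exons 4 to 9 (0.207 ± 0.217 CPM in Cirrhosis and 0.428 ± 0.174 in Control, SD, n = 6 each; log2 difference -0.90 ± 0.73 SE, limma adjusted p = 0.676) and Nr1h4 (0.27 ± 0.346 CPM in Cirrhosis and 0.471 ± 0.21 in Control; -0.87 ± 0.73, limma adjusted p = 0.704). In the count tests the lowest were Cyp2c70 exons 4 to 6 (log2 difference -1.69 in edgeR) and Slco1b2 (-1.61 in edgeR), in edgeR and DESeq2 alike, each with most Cirrhosis libraries at 0. For Cyp2c70 exons 4 to 9 and for Nr1h4 5 of 6 Cirrhosis libraries lay below the Control mean. The 95% intervals were -2.33 to 0.52 for Cyp2c70 and -2.30 to 0.55 for Nr1h4, so these data hold room for no change as well as for a several-fold lower level. In bulk liver, fewer hepatocytes and less RNA per hepatocyte cannot be told apart. The Egfr circRNA, from the sole hepatocyte marker gene with one, stood at 1.23 ± 0.818 CPM in Cirrhosis and 1.52 ± 1.65 in Control (log2 difference 0.50 ± 0.68, limma adjusted p = 0.818). That of the lymphocyte marker Ikzf1 stood at 0.901 ± 1.03 CPM in Cirrhosis and 0.514 ± 0.351 in Control (0.12 ± 0.73, limma adjusted p = 0.964). The 3 listed circRNAs of macrophage marker genes (from Adgre1 and Mertk, 2 of the 12 genes looked for) summed to 0.184 to 6.76 CPM in Cirrhosis and 0 to 1.02 CPM in Control. The other 10, among them Clec4f, Cd68 and Csf1r, have no listed circRNA, and the part of macrophages in these values was not tested.

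The comparison of Cirrhosis-PTH with Cirrhosis asks which of them PTH altered in CCl4-treated mice. Again 0 of the 12 passed limma's adjusted threshold (0% of the table), and 0 had an unadjusted p under 0.05, against 7.17% of the table. On recovered reads edgeR and DESeq2, which called 0.211% of the table each, called 0 of the 12, with 0 at an unadjusted p under 0.05, against 5.27% of the table in edgeR and 7.81% in DESeq2. A fitted difference above 0 was seen in 7 of the 12 and below 0 in 5, against 42% above 0 in the table, with a median of 0.24 in the 12 and -0.17 in all. With centred libraries 9 of the 12 were above 0, against 63.9% of the table. Abcc2 exons 5 to 6 had the smallest p, at 0.648 ± 0.601 CPM in Cirrhosis-PTH and 1.11 ± 0.548 in Cirrhosis (SD, n = 6 each), a log2 difference of -1.03 ± 0.71 SE (limma adjusted p = 0.646) with 5 of 6 Cirrhosis-PTH libraries below the Cirrhosis mean. On recovered reads, edgeR put this difference at -0.23. Fmo5 stood at 0.0966 ± 0.191 CPM in Cirrhosis-PTH and 0.334 ± 0.36 in Cirrhosis, and Cyp1a2 at 0.191 ± 0.307 CPM in Cirrhosis-PTH and 0.519 ± 0.58 in Cirrhosis. The Cyp1a2 means were 0.0891 CPM without Cirrhosis-PTH 1 and 0.333 CPM without Cirrhosis 4, and the Fmo5 mean in Cirrhosis was 0.218 CPM without Cirrhosis 5. Fmo5 and Cyp1a2 both differed by -0.86 ± 0.69 (limma adjusted p = 0.657 each) and lay below the Cirrhosis mean in 5 of 6 libraries. Abcb11 was at the other end, with 0.711 ± 0.723 CPM in Cirrhosis-PTH and 0.341 ± 0.378 in Cirrhosis, a difference of 0.84 ± 0.73 (limma adjusted p = 0.697). It lay above the Cirrhosis mean in 3 of 6 libraries, and that mean was 0.216 CPM without Cirrhosis 4. The macrophage marker circRNAs summed to 0.149 to 1.19 CPM in Cirrhosis-PTH and 0.184 to 6.76 CPM in Cirrhosis. The Egfr circRNA stood at 1.34 ± 0.868 CPM in Cirrhosis-PTH and 1.23 ± 0.818 in Cirrhosis. That of Ikzf1 stood at 0.373 ± 0.321 CPM in Cirrhosis-PTH and 0.901 ± 1.03 in Cirrhosis.

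Cirrhosis-PTH was also set against Control, with both groups shared with the comparisons above. No circRNA of the 12 passed limma's adjusted threshold (0% of the table), and 0 had an unadjusted p under 0.05, against 5.27% of the table. A fitted difference above 0 was seen in 4 and below 0 in 8, against 49.8% above 0 in the table, with a median of -0.23 in the 12. Fmo5 had the smallest unadjusted limma p of the 12 in any comparison. It stood at 0.0966 ± 0.191 CPM in Cirrhosis-PTH and 0.466 ± 0.4 in Control (SD, n = 6 each), and 5 of 6 Cirrhosis-PTH libraries were under the Control mean. The fit gave a log2 difference of -1.32 ± 0.69 SE (95% interval -2.68 to 0.036). Its limma p was 0.0564 unadjusted, rank 27 of 474, and 0.876 adjusted. On recovered reads DESeq2 gave a p of 0.0547 unadjusted and 0.791 adjusted, and edgeR 0.107 unadjusted and 0.963 adjusted. The unadjusted limma p of Fmo5 was under 0.05 in 4 other settings, with adjusted p of 0.745 to 0.947 over these 4. It was 0.0485 with centred libraries, 0.0217 without Cirrhosis-PTH 5, 0.0472 without Cirrhosis 5 and 0.0216 without Control 1. In the same order, 28, 26, 26 and 22 of all 474 circRNAs had an unadjusted limma p under 0.05. A count of 1 of 12 cannot be set apart from these. Cirrhosis-PTH 5 held 6 of its group's 9 Fmo5 reads and Control 1 held 0. Leaving out either thus removed a library that went against the difference. No other circRNA of the 12 had an unadjusted p under 0.05 in this comparison under any setting run. Abcb11 differed by 0.86 ± 0.73 (limma adjusted p = 0.876), with 0.711 CPM in Cirrhosis-PTH and 0.297 in Control. On recovered reads edgeR (0% of the table) and DESeq2 (0%) called 0 of the 12 here, with 0 at an unadjusted p under 0.05, against 4.01% and 5.91% of the table. The values of the other 2 groups overlapped with those of Control in all 12, where 0.211% of the table did not overlap for Cirrhosis against Control and 0.422% for Cirrhosis-PTH against Control. For Cirrhosis-PTH against Cirrhosis the 12 overlapped too, and 0.422% of the table did not.

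**Figure D5:**
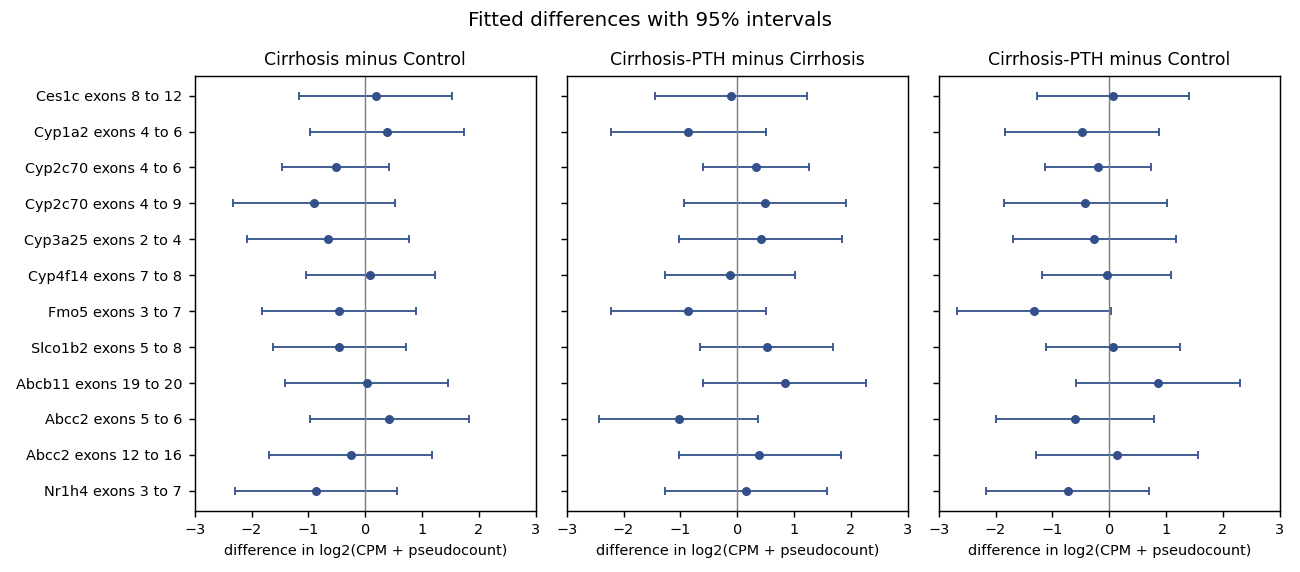
Points are fitted differences in log2(CPM + pseudocount) from limma and bars are their 95% intervals, with 1 panel for each comparison. All 36 intervals include 0, and that of Fmo5 in Cirrhosis-PTH minus Control reaches farthest from it, -2.68 to 0.036.

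Summed over the 12, the level was 5.02 ± 2.86 CPM in Cirrhosis-PTH, 4.98 ± 2.04 in Cirrhosis and 5.36 ± 1.51 in Control (SD, n = 6 each). As a share of each library's back-splice reads in the table, which lists no rarer circRNAs, this was 1.95 ± 0.587% in Cirrhosis-PTH, 1.54 ± 0.571% in Cirrhosis and 2.14 ± 0.324% in Control. The 7 enzyme circRNAs summed to 2.68 ± 2.23 CPM in Cirrhosis-PTH, 2.8 ± 1.03 in Cirrhosis and 2.86 ± 0.461 in Control, so the means were alike in CPM. As a share of back-splice reads they took 0.956 ± 0.621% in Cirrhosis-PTH, 0.893 ± 0.326% in Cirrhosis and 1.19 ± 0.319% in Control. The spread between mice was largest with PTH, from 0.298 CPM in Cirrhosis-PTH 4 to 6.31 in Cirrhosis-PTH 1. The whole table summed to 99.5 CPM in Cirrhosis-PTH 4, the lowest of the 18 libraries (99.5 to 435). In Control the 6 libraries lay between 2.38 and 3.64 CPM. The 5 circRNAs of transport and the receptor summed to 2.34 ± 1.09 CPM in Cirrhosis-PTH, 2.18 ± 1.15 in Cirrhosis and 2.5 ± 1.55 in Control. These sums are descriptions without a test. Of the 12, Cirrhosis libraries detected 4 to 11, Cirrhosis-PTH libraries 6 to 11 and Control libraries 8 to 11. Cirrhosis 6, with 4, and Cirrhosis 2, with 5, had the fewest. In the whole table Cirrhosis 6 detected 223 of 474 circRNAs, the fewest of the 18 libraries, and Cirrhosis 2 detected 367.

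Other genes of these pathways were taken from 6 lists of cytochromes P450, other oxidising and hydrolysing enzymes, conjugating enzymes, bile acid synthesis, hepatobiliary transporters and nuclear receptors, 294 genes in all. Besides the 12, the table held 8 circRNAs of 7 of these genes. None passed limma's adjusted threshold in any comparison, with 1 of 8 at an unadjusted p under 0.05 for Cirrhosis against Control (12.2% of the table), 1 of 8 for Cirrhosis-PTH against Cirrhosis (7.17%) and 0 of 8 when Cirrhosis-PTH was set against Control (5.27%). Counts of 1 or 0 of 8 cannot be set apart from these shares. In both cases it was the loop of exons 13 to 14 of Scp2, whose protein thiolase shortens the side chain of bile acid precursors and carries sterols (chr4:108055439-108063988). It stood at 1.49 ± 1.27 CPM in Cirrhosis-PTH, 0.61 ± 0.92 in Cirrhosis and 2.07 ± 2.04 in Control (SD, n = 6 each). The log2 difference of Cirrhosis against Control was -1.66 ± 0.71 (limma adjusted p = 0.313) and that of Cirrhosis-PTH against Cirrhosis 1.46 ± 0.71 (limma adjusted p = 0.624), and both share the Cirrhosis libraries. Pon1, a plasma esterase that hydrolyses lactones and organophosphates, stood at 0.899 ± 0.576 CPM in Cirrhosis-PTH, 0.588 ± 0.628 in Cirrhosis and 0.936 ± 0.824 in Control. Dpyd, which breaks down pyrimidines and fluorouracil, stood at 0.304 ± 0.251 CPM in Cirrhosis-PTH, 0.174 ± 0.377 in Cirrhosis and 0.518 ± 0.636 in Control. The Ugt1a6a circRNA was the sole one of the 64 conjugating genes, has 1 end at an exon end that Ugt1a7c shares, and averaged 0.284 ± 0.29 CPM in Cirrhosis-PTH (23 reads), 0.366 ± 0.518 in Cirrhosis (14 reads) and 0.0573 ± 0.0896 in Control (2 reads). The remaining circRNAs came from a second Scp2 loop and from Slc22a23, Nfib and Ncor1, with adjusted p of 0.657 or more in limma.

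Across the 18 libraries the 12 circRNAs followed each other little, with a median Spearman correlation of 0.12 over 66 pairs and a range of -0.47 to 0.50. The highest was that of the 2 Cyp2c70 loops and the lowest that of Cyp2c70 exons 4 to 9 with Abcc2 exons 5 to 6. Of 264 other circRNAs above 0 in at least 12 libraries, the 3 most like Ces1c by Spearman correlation of log2(CPM + pseudocount) were from Slc10a7 (0.62), Msrb1 (0.59) and Cdk8 (0.56). These are the highest of 264 values, and the points share library depth.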

How the data were processed

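The deposited values are CPM of circRNAs in 1 table, made by the authors, with a scaling base not given in the sources used here. Per the file headers the circRNA identifiers are those of CIRI. Per the submitters' processing notes the build was GRCm38, and Trim Galore, cutadapt 4.2, Bowtie2, Bowtie 1.3.1, StringTie 2.1.5 and HISAT2 2.2.1 were used, with no role given. Per the labels' protocols, ribosomal RNA was removed before library making, and no digestion of linear RNA is named. Groups and numbers came from the sample titles, and each library is 1 mouse. The table lists circRNAs with reads in 9 or more libraries, and rarer ones were not analysed here.

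Reads were recovered from the CPM steps, and 100% of the 5886 values above 0 came out whole within 0.01. The totals behind the CPM were 2706143 to 29164296. The main test was limma 3.58.1 (trend, R 4.3.3) on log2(CPM + 0.143), a scale that understates changes of low circRNAs, with 1 model of 18 libraries and Benjamini-Hochberg adjustment over 474 circRNAs. As pseudocount the smallest nonzero value of each library was taken and the median of the 18 used. Requiring reads in 6 or more libraries removed 0 circRNAs. edgeR 4.0.16 with TMM and DESeq2 1.42.0 were run on the recovered reads. The fits were tested on simulated data. Ends were placed on GENCODE M21 exons, strand was taken from the host gene, and loops were compared with other genes' transcripts by BLAST 2.17.0 and by mismatches over 25 bases. Python 3.11.15 with pandas 2.3.3 and SciPy 1.17.1 was used, and matplotlib 3.10.9 for figures.

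All circRNAs of the 10 genes are named. From each wider list, those past the threshold and up to 3 of highest mean CPM were to be named. The members and lists were chosen with earlier results of these data known. Other settings were other pseudocounts, filters, a centring of libraries, the 2 count tests, the title number as block, and each library left out.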

Additional observations from a re-analysis of the deposited data

Results flagged for a closer look

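In 36 group values of single circRNAs (12 circRNAs in 3 groups of 6), 9 had 1 library whose gap to the next, as a share of the group's range, exceeded Dixon's 95% critical value for 6 samples, where chance gives about 1 in 20. Values with many zeros exceed that gap easily, and all 9 were the highest of their group. In Cirrhosis-PTH these were Cyp3a25 in Cirrhosis-PTH 1 (1.23 CPM from 7 reads, next 0.343), Nr1h4 in Cirrhosis-PTH 6 (1.03 CPM from 30 reads, next 0.35) and Fmo5 in Cirrhosis-PTH 5 (0.477 CPM from 6 reads, next 0.103). In Cirrhosis they were Nr1h4 in Cirrhosis 1 (0.938 CPM from 7 reads, next 0.259), Cyp4f14 in Cirrhosis 6 (0.922 CPM from 5 reads, next 0.268), Cyp2c70 exons 4 to 6 in Cirrhosis 5 (0.365 CPM from 2 reads, next 0) and Slco1b2 in Cirrhosis 5 (0.731 CPM from 4 reads, next 0.129). In Control they were Nr1h4 in Control 2 (0.888 CPM from 3 reads, next 0.455) and Cyp2c70 exons 4 to 9 in Control 6 (0.767 CPM from 4 reads, next 0.425).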

How the results depend on the processing

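Few reads stand behind these results, and the spread between mice adds to their counting error, without the 2 being told apart here. The fitted log2 differences of the 12 circRNAs had SEs of 0.48 to 0.73, and 13 of 36 group means moved by over 1.5 times without their highest library. None of the 12 passed the adjusted threshold under any setting run, each library left out included. Their lowest adjusted p was 0.3 (Nr1h4 and both Cyp2c70 loops, Cirrhosis against Control, centred). In the whole table, Cirrhosis against Control called 2 with centred libraries, 1 with DESeq2 and 0 to 1 with a library left out (1 without Control 3), and Cirrhosis-PTH against Cirrhosis called 1 with edgeR, 1 with DESeq2 and 0 to 1 with a library left out (1 without Control 6, Cirrhosis 1, Cirrhosis 2 or Cirrhosis 3). Requiring reads in 12 or more libraries left 7 of the 12.

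Signs of small differences turned, and the cause was not tested. For Cirrhosis against Control, centring gave -0.55 for Abcb11, -0.40 for Ces1c, -0.49 for Cyp4f14, -0.15 for Abcc2 exons 5 to 6 and -0.20 for Cyp1a2. edgeR gave -0.37 for Abcb11, -0.17 for Ces1c and -0.091 for Abcc2 exons 5 to 6, and DESeq2 -0.45, -0.25 and -0.33 for the same. For Cirrhosis-PTH against Cirrhosis, Ces1c turned to 0.07 with a pseudocount of 1 CPM, 0.40 centred, 0.52 in edgeR and 0.45 in DESeq2, and Cyp4f14 to 0.38 centred, 0.21 in edgeR and 0.14 in DESeq2. For Cirrhosis-PTH against Control, Ces1c turned to -0.051 with a pseudocount of 0.0714 CPM, Cyp4f14 to 0.53 in edgeR and 0.22 in DESeq2, and Slco1b2 to -0.0047 with 1 CPM, -0.0014 centred, -0.53 in edgeR and -0.65 in DESeq2.

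Whether the title numbers pair the mice is not settled here. Deviations of same-numbered libraries correlated at -0.0572 to 0.0817 over 14 pairs. With so few reads per value, and no correlation of differently numbered libraries beside it, this cannot exclude pairing. With the number as replicate block, which keeps the 4 numbers shared with Control in each group and drops the other 2 mice, and keeps all 6 of Cirrhosis-PTH and Cirrhosis, 0 circRNAs passed in each comparison. The block turned 5 signs, for Cirrhosis against Control to -0.35 for Abcb11, -0.17 for Cyp4f14, -0.66 for Abcc2 exons 5 to 6 and -0.58 for Cyp1a2, and for Cirrhosis-PTH against Control to -0.38 for Abcc2 exons 12 to 16.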

Other observations

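In Cirrhosis-PTH 4, a library chosen after its values were seen, the 7 enzyme circRNAs had 4 reads, 0.298 CPM, with 0 for Ces1c, Cyp1a2, Cyp2c70 exons 4 to 9, Cyp4f14 and Fmo5. The 5 circRNAs of transport and the receptor had 22 reads, 1.64 CPM. Of these 22, both Abcc2 loops gave 16, Abcb11 5 and Nr1h4 1, and Slco1b2 had 0.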
